A study of Homo sapiens with 8 samples.

Results

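The 36 aminoacyl-tRNA synthetase genes of the deposited expression table were examined in MV4-11 cells, 20 of them encoding cytosolic enzymes and 16 encoding mitochondrial ones. They were taken by gene symbol in the older naming of the table, in which a mitochondrial enzyme carries a final 2 (YARS is cytosolic, YARS2 mitochondrial), and no measured value was used to choose them. The table holds 26364 genes, of which 14151 reached at least 1 TPM (transcript abundance per gene length, scaled to the same total in every library) in at least 2 libraries and were tested, and all 36 members were among these. MV4-11 is an established acute myeloid leukaemia (AML) line that carries FLT3-ITD and the MLL-AF4 fusion in every group. RNA was sequenced on day 4 in 4 groups of 2 libraries each: the DMSO vehicle, TCP (tranylcypromine, an inhibitor of the histone demethylase LSD1) at 5 µM, palbociclib (an inhibitor of CDK4 and CDK6) at 0.5 µM, and both molecules together, called the combination below. The methods describe palbociclib given alone before the second molecule was added, and AML lines grown on HS-5 stromal cells, while the labels give the same number of days for every group and name no stromal cells. Nothing states whether the replicates came from separate cultures, so the p-values measure the spread between these libraries, which may be technical.

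Each aminoacyl-tRNA synthetase joins an amino acid to its own tRNAs and so sets the supply of charged tRNA for translation. Protein synthesis in the cytosol and inside mitochondria uses separate sets of enzymes, nearly all of them encoded by separate nuclear genes, while GARS and KARS each encode the glycine and the lysine enzyme of both compartments. Several cytosolic enzymes sit in a multi-synthetase complex held together by scaffold proteins, and many synthetase genes are known targets of ATF4, the transcription factor of the amino acid response.

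Cytosolic synthetase transcripts were at a lower level with palbociclib, with or without TCP, mitochondrial ones were lower by a smaller share, and TCP alone gave no call in either class. The summed level of the 20 cytosolic genes was 4146 and 3729 TPM in the DMSO libraries, 3881 and 3212 TPM with TCP, 2059 and 1884 TPM with palbociclib, and 1949 and 1871 TPM with the combination. The 16 mitochondrial genes summed to 515 and 529 TPM in DMSO, 525 and 516 TPM with TCP, 432 and 396 TPM with palbociclib, and 409 and 381 TPM with the combination. The 4 libraries with palbociclib therefore lay below the 4 libraries without it in both classes, and their group means were 50.1% and 48.5% of DMSO for the cytosolic sum against 79.3% and 75.6% for the mitochondrial sum. The ratio of both sums, which does not depend on the scaling between libraries, was 8.05 and 7.05 in DMSO, 7.40 and 6.22 with TCP, 4.76 and 4.75 with palbociclib, and 4.76 and 4.91 with the combination. With GARS and KARS left out, the ratio was 7.03 and 6.10 in DMSO and 4.26 and 4.24 with palbociclib. With 2 libraries against 2, an exact two-sided permutation test cannot go below p = 0.333, so the sums and ratios are given without a test.

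**Figure D1:**
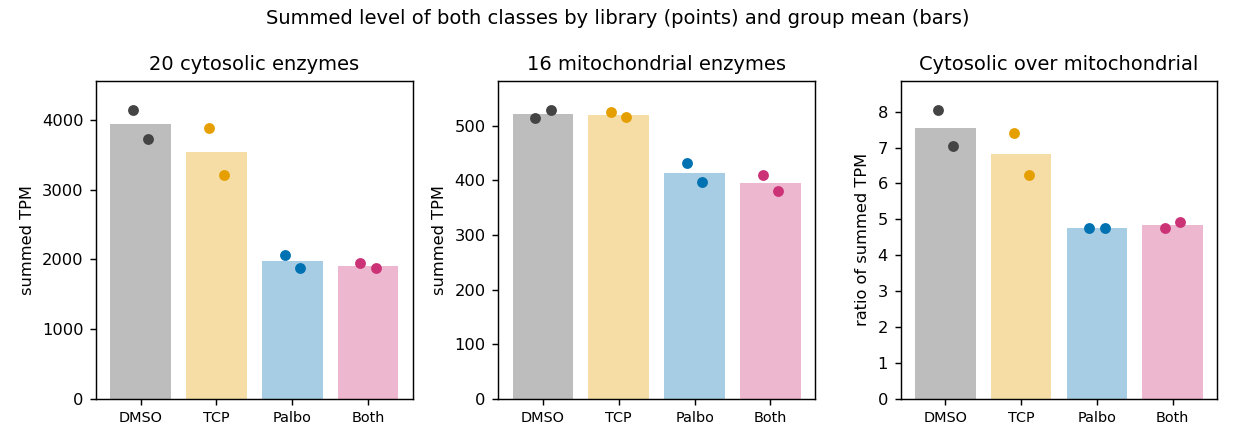
Summed TPM of the 20 cytosolic genes, of the 16 mitochondrial genes, and the ratio of both sums, in each of the 8 libraries (points) with the group mean (bars). Palbo is palbociclib and Both is the combination. The cytosolic sum falls from a mean of 3938 TPM in DMSO to 1972 TPM with palbociclib, and the ratio from 7.55 to 4.76.

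Differentially expressed genes (DEG) had a log2 fold change of 1 or more in size on the log2(TPM + 1) scale and a limma p, adjusted over all tested genes, below 0.01. A wider rule, adjusted p below 0.05 at any size, is given beside these thresholds. Under palbociclib against DMSO, 9 of the 20 cytosolic genes and 0 of the 16 mitochondrial genes were DEG, all lower, where 4.56% of all tested genes were lower DEG. At adjusted p below 0.05, 16 cytosolic and 12 mitochondrial genes were lower and none was higher, where 30.2% of all tested genes were lower and 14.8% higher. The median log2 fold change was -0.95 over the cytosolic genes, -0.40 over the mitochondrial genes and -0.16 over all tested genes. Under the combination against DMSO, 12 members were DEG, all lower, 10 of them cytosolic and 2 mitochondrial, where 7.82% of all tested genes were lower DEG. At adjusted p below 0.05, 17 cytosolic and 13 mitochondrial genes were lower, where 37.6% of all tested genes were lower. The medians under the combination were -1.05, -0.47 and -0.22 for the cytosolic, the mitochondrial and all tested genes. Both treatments are set against the same DMSO libraries, so their values are not independent of each other.

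The values depend in part on scaling. The 10 most abundant entries took 9.12% to 9.67% of the TPM in the libraries without palbociclib and 14% to 15.8% in those with it, while TPM add up to the same total in every library. After each library was scaled by its median ratio to the other libraries, the median of all tested genes was -0.01 in both comparisons, and the cytosolic and mitochondrial medians were -0.79 and -0.24 under palbociclib and -0.82 and -0.27 under the combination. With this scaling the DEG calls on FARS2, WARS2, FARSB and LARS under the combination and on SARS under palbociclib were lost. The count at adjusted p below 0.05 went from 16 to 14 lower cytosolic and from 12 to 6 lower mitochondrial genes under palbociclib, and from 17 to 14 and from 13 to 5 under the combination, where 20% and 23.4% of all tested genes were then lower. HARS2 was then higher in both comparisons.

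**Figure D2:**
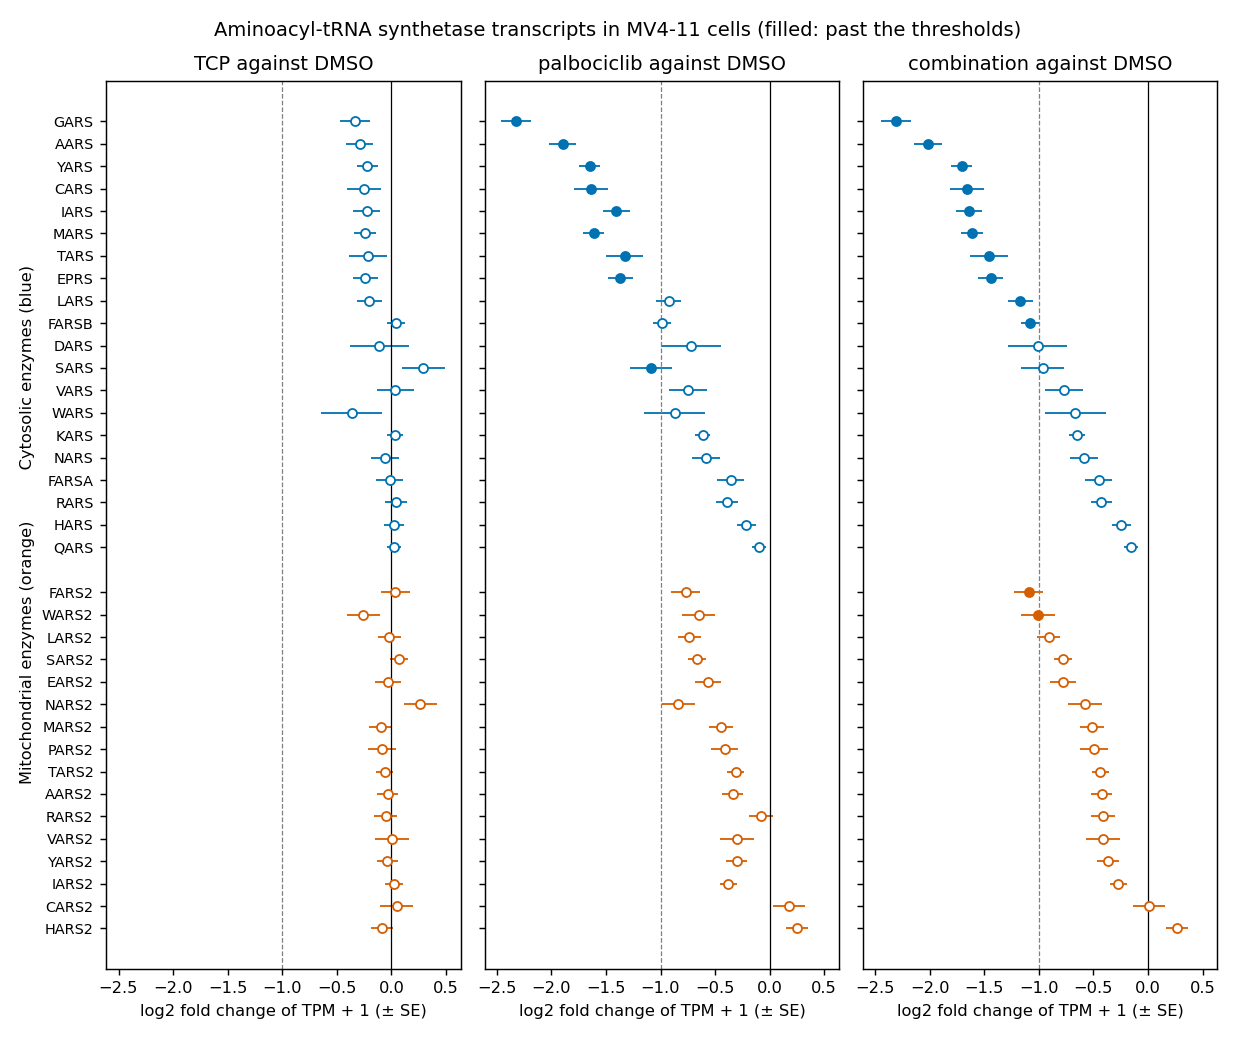
Log2 fold change of TPM + 1 with its standard error for each of the 36 members against DMSO, with 2 libraries per group. Cytosolic enzymes are blue and mitochondrial ones orange, filled points are DEG, and the dashed line marks a log2 fold change of -1. There are 12 filled points for the combination, 9 for palbociclib and 0 for TCP.

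The largest fall was that of GARS, the glycine enzyme of both compartments (GRCh37, chr7:30620149-30673649, + strand). Its level was 279 and 264 TPM in DMSO, 250 and 185 TPM with TCP, 51.4 and 55.2 TPM with palbociclib, and 52.0 and 55.7 TPM with the combination. All 4 libraries with palbociclib lay far below the other 4, and the TCP libraries lay below both DMSO libraries. The log2 fold change was -2.33 ± 0.14 (SE) under palbociclib, a 5.01-fold fall (limma, adjusted p = 9.31e-05), and -2.31 ± 0.14 under the combination (limma, adjusted p = 4.64e-05).

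AARS, which charges tRNA with alanine (chr16:70285886-70323610, - strand), stood at 326 and 286 TPM in DMSO and 281 and 221 TPM with TCP, against 84.7 and 77.8 TPM with palbociclib and 75.4 and 73.9 TPM with the combination. Its log2 fold change was -1.90 ± 0.13 (SE) under palbociclib (limma, adjusted p = 0.00012) and -2.02 ± 0.13 under the combination (adjusted p = 5.34e-05). The tyrosine enzyme YARS was at 277 and 257 TPM in DMSO, 245 and 214 TPM with TCP, 88.5 and 80.4 TPM with palbociclib, and 84.6 and 77.3 TPM with the combination. For both genes the libraries with and without palbociclib did not overlap. YARS fell by 1.65 ± 0.10 under palbociclib (adjusted p = 9.22e-05) and by 1.71 ± 0.10 under the combination (adjusted p = 3.93e-05).

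CARS, the cysteine enzyme, measured 72.7 and 64.6 TPM in DMSO, 66.8 and 49.5 TPM with TCP, 19.7 and 23.1 TPM with palbociclib, and 20.4 and 21.7 TPM with the combination. It fell by 1.64 ± 0.15 under palbociclib (limma, adjusted p = 0.000377) and by 1.66 ± 0.15 under the combination (adjusted p = 0.000209). TARS, the threonine enzyme, had the highest level of all members in DMSO, at 484 and 410 TPM, and stood at 444 and 332 TPM with TCP, 197 and 159 TPM with palbociclib, and 174 and 151 TPM with the combination. It was thus no longer the most abundant synthetase once palbociclib was present. Its log2 fold change was -1.33 ± 0.17 under palbociclib (adjusted p = 0.00121) and -1.46 ± 0.17 under the combination (adjusted p = 0.000555).

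The phenylalanine enzyme of the cytosol is built from 2 kinds of subunit, encoded by FARSA and FARSB, and FARSB was a DEG under the combination. FARSB was at 56.8 and 58.8 TPM in DMSO, 57.8 and 61.5 TPM with TCP, 29.9 and 27.6 TPM with palbociclib, and 27.4 and 26 TPM with the combination. Its log2 fold change of -0.98 ± 0.08 under palbociclib missed the size threshold (limma, adjusted p = 0.000259), and that of -1.08 ± 0.08 under the combination passed it (adjusted p = 9.76e-05). After quantile normalization and median-ratio scaling the latter was -0.88 and -0.86, short of the threshold. For FARSA, named here after its values were seen, the log2 fold changes were -0.36 ± 0.13 (adjusted p = 0.0549, or 0.0273 with the replicate number as a block) and -0.45 ± 0.13 (adjusted p = 0.0206). Whether both subunits differed in their change was not tested.

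SARS, the serine enzyme, was measured at 62.1 and 48.4 TPM in DMSO, 81.6 and 55.7 TPM with TCP, 27 and 23.7 TPM with palbociclib, and 28.9 and 26.3 TPM with the combination. It fell by 1.09 ± 0.20 under palbociclib (limma, adjusted p = 0.00442) and by 0.97 ± 0.20 under the combination (adjusted p = 0.00558), just short of the size threshold, and its DEG call under palbociclib was lost in 9 of 16 alternative analyses.

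Among the cytosolic enzymes of the multi-synthetase complex, 3 of 8 were DEG under palbociclib (MARS, IARS and EPRS) and 4 of 8 under the combination (also LARS). Outside the complex, 6 of 12 cytosolic enzymes were DEG under each. The share of lower DEG over all tested genes was 4.56% under palbociclib and 7.82% under the combination. The median log2 fold changes under palbociclib were -0.82 inside and -1.04 outside the complex. MARS, the methionine enzyme, measured 289 and 261 TPM in DMSO, 252 and 214 TPM with TCP, 91.9 and 86.3 TPM with palbociclib, and 90.4 and 87.9 TPM with the combination. IARS, the isoleucine enzyme, was at 97.8 and 95 TPM in DMSO, 92.9 and 72.9 TPM with TCP, 37.9 and 33.8 TPM with palbociclib, and 31.0 and 29.5 TPM with the combination. Neither gene had overlapping libraries with and without palbociclib. The log2 fold changes of MARS were -1.61 ± 0.10 under palbociclib (limma, adjusted p = 9.75e-05) and -1.61 ± 0.10 under the combination (adjusted p = 5.02e-05), and those of IARS were -1.41 ± 0.12 (adjusted p = 0.000301) and -1.64 ± 0.12 (adjusted p = 9.69e-05).

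EPRS, a fused enzyme for glutamate and proline, stood at 183 and 173 TPM in DMSO, 169 and 134 TPM with TCP, 71.1 and 65.8 TPM with palbociclib, and 65.2 and 64.6 TPM with the combination. It fell by 1.37 ± 0.11 under palbociclib (limma, adjusted p = 0.000261) and by 1.44 ± 0.11 under the combination (adjusted p = 0.000117). LARS, the leucine enzyme, went from 229 and 208 TPM in DMSO and 211 and 170 TPM with TCP to 120 and 110 TPM with palbociclib and 98.5 and 94.6 TPM with the combination. LARS passed the size threshold against DMSO under the combination, but not after median-ratio scaling (-0.94), and the levels with palbociclib and with the combination were not called different. Its log2 fold changes were -0.92 ± 0.11 under palbociclib (adjusted p = 0.00101) and -1.17 ± 0.11 under the combination (adjusted p = 0.000256).

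QARS, the glutamine enzyme of the same complex, was the highest cytosolic member by mean level and had the smallest log2 fold changes among the cytosolic genes with palbociclib. It measured 307 and 316 TPM in DMSO, 312 and 323 TPM with TCP, 299 and 283 TPM with palbociclib, and 282 and 278 TPM with the combination. Its log2 fold changes were -0.10 ± 0.06 under palbociclib (limma, adjusted p = 0.24), -0.15 ± 0.06 under the combination (adjusted p = 0.0797, or 0.0498 with the replicate block) and -0.18 ± 0.06 in the combination against TCP (adjusted p = 0.0503, or 0.0298). After median-ratio scaling the values against DMSO were both positive, at 0.06 and 0.08. QARS was therefore the most abundant synthetase in both groups with palbociclib, with means of 291 and 280 TPM, after TARS had been so in DMSO and TCP with means of 447 and 388 TPM.

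The transcripts of the 3 scaffold proteins of the complex were lower too. EEF1E1, a small scaffold subunit, was at 69.5 and 60.2 TPM in DMSO, 59.8 and 51.4 TPM with TCP, 25.9 and 19.4 TPM with palbociclib, and 17.7 and 16.6 TPM with the combination. It was a DEG under palbociclib, with a log2 fold change of -1.49 ± 0.15 (limma, adjusted p = 0.000516), and under the combination, with -1.86 ± 0.15 (adjusted p = 0.000132). AIMP1 and AIMP2, the other two scaffolds, fell by 0.54 ± 0.09 and 0.44 ± 0.14 under palbociclib (adjusted p = 0.00391 and 0.0372) and by 0.88 ± 0.09 and 0.45 ± 0.14 under the combination (adjusted p = 0.00037 and 0.0294).

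**Figure D3:**
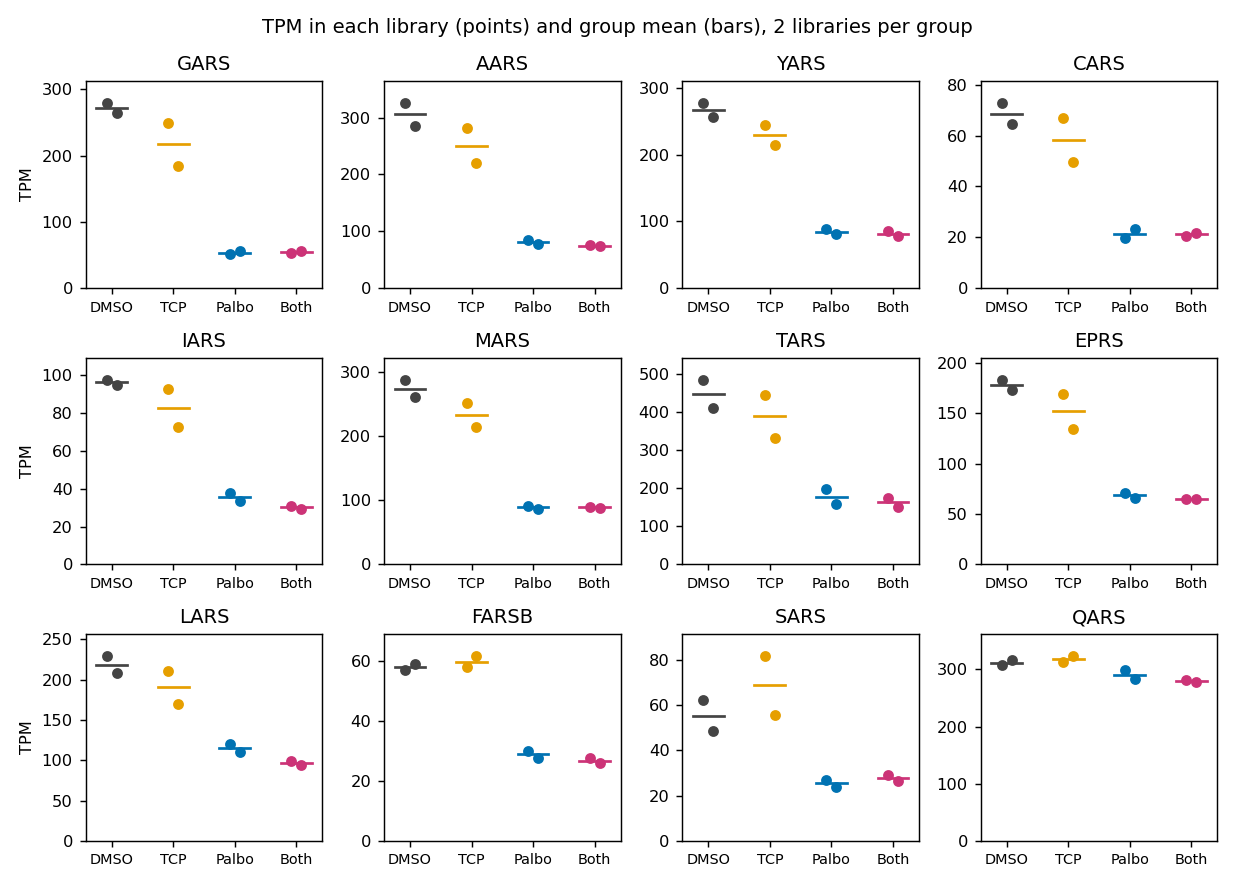
TPM of 12 cytosolic synthetases in each library (points) with the group mean (bars), with axes that start at 0. Palbo is palbociclib and Both is the combination. In GARS the 4 libraries with palbociclib lie between 51.4 and 55.7 TPM and the other 4 between 185 and 279 TPM, while in QARS the same groups lie at 278 to 299 TPM and 307 to 323 TPM.

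The remaining cytosolic members had smaller or more variable changes. VARS, the valine enzyme and the lowest cytosolic member, measured 17.8 and 21.9 TPM in DMSO, 17.2 and 24.0 TPM with TCP, 11.0 and 11.7 TPM with palbociclib, and 10.6 and 11.8 TPM with the combination. Its fall of 0.75 ± 0.17 under palbociclib passed the wider rule (limma, adjusted p = 0.012). WARS, the tryptophan enzyme, whose gene is known to be induced by interferon gamma, showed the widest spread between replicates, with 469 and 314 TPM in DMSO and 400 and 221 TPM with TCP, against 210 and 208 TPM with palbociclib and 243 and 240 TPM with the combination. TCP replicate 2 lay below both combination libraries, so the groups with and without palbociclib overlapped for WARS. Its log2 fold changes were -0.87 ± 0.28 under palbociclib (adjusted p = 0.0411) and -0.67 ± 0.28 under the combination (adjusted p = 0.0844, or 0.0322 with the replicate block). The other cytosolic members, DARS, FARSA, HARS, KARS, NARS and RARS, had log2 fold changes between -0.72 and -0.21 under palbociclib and between -1.01 and -0.24 under the combination. DARS, at -1.01 ± 0.27 under the combination (adjusted p = 0.0182), met the DEG thresholds only with the replicate block (adjusted p = 0.00171), and at -0.72 ± 0.27 under palbociclib it passed the wider rule only with the block (adjusted p = 0.0685, or 0.00827). HARS, named after its values were seen, likewise passed the wider rule under the combination only with the block, at -0.24 ± 0.09 (limma, adjusted p = 0.0566, or 0.0402).

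The mitochondrial enzymes were lower in level and in change. Their group means in DMSO ran from 2.20 TPM (VARS2) to 97.9 TPM (IARS2), with a median of 32.7 TPM against 198 TPM for the cytosolic genes, and under palbociclib the medians were 21.6 and 75.7 TPM. FARS2, the mitochondrial phenylalanine enzyme, was a DEG under the combination. It measured 14.9 and 16.5 TPM in DMSO, 15.1 and 17.2 TPM with TCP, 9.84 and 7.86 TPM with palbociclib, and 6.74 and 6.95 TPM with the combination, with log2 fold changes of -0.77 ± 0.13 under palbociclib (limma, adjusted p = 0.00375) and -1.09 ± 0.13 under the combination (adjusted p = 0.000625). The other mitochondrial DEG under the combination was WARS2, the tryptophan enzyme, named here after its values were seen, with a log2 fold change of -1.01 ± 0.15 (adjusted p = 0.00157). VARS2, the valine enzyme, passed the wider rule only with the replicate block, at -0.41 ± 0.16 under the combination (limma, adjusted p = 0.0619, or 0.0498) and -0.42 ± 0.16 in the combination against TCP (adjusted p = 0.0622, or 0.0493).

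LARS2, the leucine enzyme, went from 22.6 and 26.1 TPM in DMSO and 23.4 and 24.5 TPM with TCP to 14.4 and 14 TPM with palbociclib and 13.1 and 11.8 TPM with the combination. Its log2 fold changes were -0.74 ± 0.10 (limma, adjusted p = 0.00171) and -0.91 ± 0.10 (adjusted p = 0.00048). EARS2, the glutamate enzyme, stood at 29.7 and 37.3 TPM in DMSO, 31.5 and 33.9 TPM with TCP, 22.9 and 21.6 TPM with palbociclib, and 19.4 and 18.6 TPM with the combination. The libraries with palbociclib lay below those without it for both genes. EARS2 fell by 0.56 ± 0.12 under palbociclib (adjusted p = 0.00829) and by 0.78 ± 0.12 under the combination (adjusted p = 0.00164).

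The mitochondrial partners of the cytosolic genes that fell most moved by smaller amounts. AARS2 was at 29.5 and 33.6 TPM in DMSO, 29.4 and 32.1 TPM with TCP, 25.6 and 23.7 TPM with palbociclib, and 23.2 and 23.2 TPM with the combination. YARS2 was at 22.2 and 25.1 TPM in DMSO, 22.1 and 23.9 TPM with TCP, 19.6 and 18.4 TPM with palbociclib, and 18.4 and 17.8 TPM with the combination. MARS2 was at 32.5 and 38.9 TPM in DMSO, 31.5 and 34.9 TPM with TCP, 26.7 and 25 TPM with palbociclib, and 24.6 and 24.6 TPM with the combination. In all 3 genes the libraries with palbociclib lay below those without it, by less than in the cytosolic enzyme of the same amino acid. Their log2 fold changes under palbociclib were -0.34 ± 0.10, -0.30 ± 0.10 and -0.45 ± 0.11 for AARS2, YARS2 and MARS2 (limma, adjusted p = 0.0272, 0.0414 and 0.0147), and these calls at adjusted p below 0.05 held in 8, 6 and 12 of 16 alternative analyses.

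IARS2 was at 93.4 and 102 TPM in DMSO, 99.1 and 99.98 TPM with TCP, 77.6 and 72.3 TPM with palbociclib, and 82.6 and 79.1 TPM with the combination. TARS2 was at 38.3 and 40.5 TPM in DMSO, 38.3 and 37.2 TPM with TCP, 31.5 and 31.4 TPM with palbociclib, and 29.7 and 27.9 TPM with the combination. PARS2, the proline enzyme, was at 13.9 and 12.3 TPM in DMSO, 12.3 and 12.2 TPM with TCP, 10.6 and 8.62 TPM with palbociclib, and 9.39 and 8.58 TPM with the combination. All 3 were lower with palbociclib under the wider rule. Their log2 fold changes were -0.38 ± 0.08, -0.31 ± 0.08 and -0.41 ± 0.13 for IARS2, TARS2 and PARS2 under palbociclib (limma, adjusted p = 0.0075, 0.0158 and 0.0341), and these calls held in 13, 11 and 7 of 16 alternative analyses.

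CARS2 and HARS2 had positive log2 fold changes under palbociclib and under the combination, the only members to do so on the deposited scale, while after median-ratio scaling QARS was positive in both comparisons and RARS2 under palbociclib (0.08). CARS2, the cysteine enzyme, was at 44.3 and 36.6 TPM in DMSO, 45.3 and 38.3 TPM with TCP, 48.7 and 42.7 TPM with palbociclib, and 44.7 and 36.6 TPM with the combination. The groups overlapped throughout, and its log2 fold changes were 0.17 ± 0.15 under palbociclib (limma, adjusted p = 0.367) and 0.01 ± 0.15 under the combination (adjusted p = 0.973). HARS2, the histidine enzyme, described here after its values were seen, was at 47.5 and 44.1 TPM in DMSO, 44.6 and 41.5 TPM with TCP, 58.8 and 50.8 TPM with palbociclib, and 58.1 and 52.3 TPM with the combination. All 4 HARS2 libraries with palbociclib lay above the 4 without it. Its log2 fold change was 0.25 ± 0.10 under palbociclib (adjusted p = 0.085, or 0.0145 with the replicate block) and 0.26 ± 0.10 under the combination (adjusted p = 0.066, or 0.0104 with the block), and it was higher in the combination than with TCP (0.35 ± 0.10, adjusted p = 0.0261), where 16.5% of all tested genes were higher at adjusted p below 0.05. HARS (chr5:140052620-140071122, - strand) and HARS2 (chr5:140071015-140078890, + strand) overlap by 108 bases in the GRCh37 annotation, and the strand setting of the counting is not given in the sources used here, so reads in the shared stretch could have been assigned to either.

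Set side by side within each library, 17 pairs of a cytosolic and a mitochondrial gene for the same amino acid could be formed, with EPRS paired with EARS2 and with PARS2, and FARS2 with FARSA and with FARSB. The ratio of the cytosolic to the mitochondrial level was below both DMSO libraries in both palbociclib libraries for 13 of 17 pairs and in both combination libraries for 9 of 17 pairs. Under TCP the same held for 2 pairs, those of CARS and NARS. The share of other gene pairs placed in this way was not counted, so these counts are descriptions. Complete separation of 2 libraries against 2 has an exact two-sided permutation p of 0.333. Pairs that share EPRS or FARS2 are not separate. The AARS to AARS2 ratio went from 11.0 and 8.5 in DMSO to 3.30 and 3.28 with palbociclib, and the YARS to YARS2 ratio from 12.5 and 10.2 to 4.53 and 4.38. The CARS to CARS2 ratio turned over, from 1.64 and 1.76 in DMSO to 0.405 and 0.540 with palbociclib, so that the mitochondrial transcript was the more abundant per length. The LARS to LARS2 ratio, at 10.1 and 7.96 in DMSO and 8.29 and 7.86 with palbociclib, overlapped. The FARSA to FARS2 ratio rose above both DMSO libraries, from 11.0 and 11.1 to 14 and 16.9 with palbociclib and 18.5 and 18.4 with the combination. The NARS to NARS2 ratio also lay above both DMSO libraries with palbociclib, at 10.14 and 10.13 against 8.08 and 8.59. With the combination, at 8.02 and 8.74, it overlapped them.

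**Figure D4:**
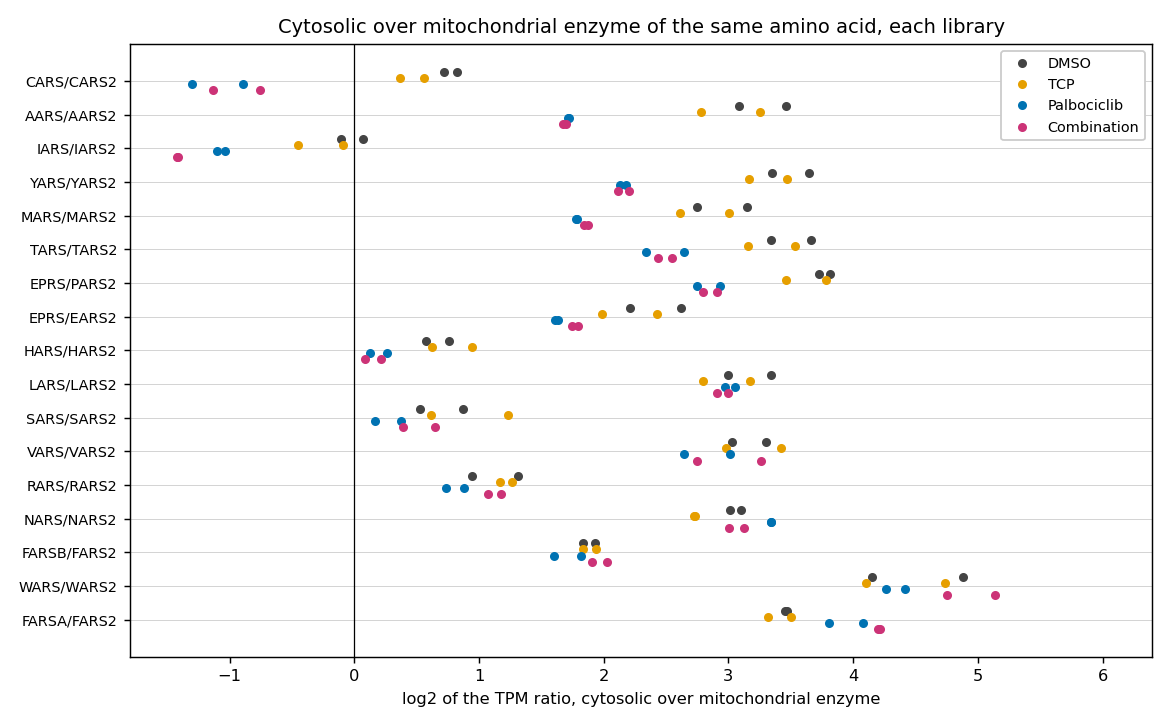
Log2 of the TPM ratio of the cytosolic to the mitochondrial enzyme for 17 pairs of the same amino acid, with 1 point for each of the 8 libraries, ordered by the change under the combination. A point left of 0 means that the mitochondrial transcript is the more abundant. CARS/CARS2 crosses 0, from ratios of 1.64 and 1.76 in DMSO to 0.405 and 0.540 with palbociclib, and FARSA/FARS2 moves to the right.

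TCP alone gave 0 DEG among the 36 members by limma, where 0.0565% of all tested genes were DEG in either direction. No member passed adjusted p below 0.05 either, with or without the replicate block, where 0.431% of all tested genes did without it. By limma, an unadjusted p below 0.05 was found in 2 of 36 members (GARS and MARS) and in 1241 of all 14151 tested genes. The median log2 fold changes were -0.16 over the cytosolic, -0.03 over the mitochondrial and -0.04 over all tested genes. The largest positive value was that of SARS, at 0.29 ± 0.20 (adjusted p = 0.744), and the largest negative value that of WARS, at -0.36 ± 0.28 (adjusted p = 0.788), both within the spread of their libraries. TCP replicate 2 was lower than TCP replicate 1 in 14 of 20 cytosolic genes and 7 of 16 mitochondrial genes, and replicate 2 was also the lower one in 14, 17 and 16 of 20 cytosolic genes in DMSO, palbociclib and the combination. The cytosolic and mitochondrial medians under TCP were -0.04 and -0.04 without TCP replicate 2, and -0.33 and 0.02 without TCP replicate 1.

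Adding TCP to palbociclib gave no DEG among the members. In the combination against palbociclib by limma, 0 of 36 passed either rule. Over all tested genes, 0.502% were DEG and 3.49% passed adjusted p below 0.05. Unadjusted p was below 0.05 in 2 members (FARS2 and RARS2) and in 2472 of all 14151 tested genes. The 95% intervals of the log2 differences, not adjusted for their number, lay within -1 and 1 for all 36 members, the lowest bound being -0.94 (DARS) and the highest 0.87 (WARS). FARS2 had a log2 difference of -0.32 ± 0.13 (adjusted p = 0.279). In the combination against TCP, 11 members were lower DEG, 10 cytosolic (AARS, CARS, EPRS, FARSB, GARS, IARS, MARS, SARS, TARS and YARS) and 1 mitochondrial (FARS2), where 6.70% of all tested genes were lower DEG, and 31 were lower at adjusted p below 0.05, where 33.8% of all tested genes were. The interaction of TCP and palbociclib passed neither rule in any member by limma, where 0% of all tested genes passed either. No member had an unadjusted p below 0.05, where 904 of all 14151 tested genes had.

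The promoters of 30 members were matched by symbol in the RefSeq table of GRCh38.p14, in windows from 250 bases before to 50 bases after each start site, and AARS2, DARS, LARS, VARS, VARS2 and YARS had no entry. The 8-letter motif TGATGNAA, the core of the C/EBP-ATF composite element at which ATF4 is known to act, was searched on both strands, as was CACGTG, the E-box at which MYC is known to bind, and neither motif contains the other. TGATGNAA was found in the windows of 7 of 16 cytosolic genes (AARS, CARS, GARS, IARS, MARS, NARS and TARS) and 1 of 14 mitochondrial genes (YARS2). By window, these were 33.3% of cytosolic and 5.56% of mitochondrial windows, where 3.62% of all 35116 promoter windows held it. The E-box was found in IARS, CARS2, EARS2 and MARS2, which made 4.76% of cytosolic and 22.2% of mitochondrial windows, where 7.26% of all windows held it. The stretches around TGATGNAA are shown because 6 of the 7 cytosolic genes that held it were DEG under palbociclib, a choice made from the outcome. Of all tested genes, 4.56% were lower DEG, and the share among all genes that hold the motif was not computed. They are written 5′ to 3′ on the strand of the gene, with GRCh38.p14 coordinates and with the match in capitals, and a match that reads TTGCATCA or TTTCATCA is the motif on the opposite strand.
GARS (chr7:30594819-30594878, + strand): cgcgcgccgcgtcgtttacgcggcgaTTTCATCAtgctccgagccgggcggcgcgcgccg
AARS (chr16:70289660-70289719, - strand): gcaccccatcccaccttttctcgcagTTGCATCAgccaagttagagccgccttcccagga
CARS (chr11:3057394-3057451, - strand): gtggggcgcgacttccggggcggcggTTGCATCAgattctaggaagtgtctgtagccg
MARS (chr12:57488038-57488097, + strand): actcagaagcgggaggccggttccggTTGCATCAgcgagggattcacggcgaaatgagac
IARS (chr9:92293677-92293736, - strand): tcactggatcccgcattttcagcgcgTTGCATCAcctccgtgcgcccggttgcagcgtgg
TARS (chr5:33440941-33440994, + strand): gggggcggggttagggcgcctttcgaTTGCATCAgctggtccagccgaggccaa
NARS (chr18:57621807-57621848, - strand): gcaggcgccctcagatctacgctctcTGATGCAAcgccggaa
YARS2 (chr12:32756061-32756120, - strand): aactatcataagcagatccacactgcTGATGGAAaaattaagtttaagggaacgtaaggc

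The core TTGCATCA was spelled alike in AARS, CARS, MARS, IARS and TARS, and NARS held it on the other strand. The matches began 187 and 197 bases before the start site in AARS and YARS2 and within 33 bases of it in the other 6 genes. Among the 16 cytosolic genes with a window, the median log2 fold change under palbociclib was -1.61 for the 7 with the motif and -0.61 for the 9 without it, of which 2 were DEG, and under the combination it was -1.64 and -0.65. NARS, the asparagine enzyme, held the motif and fell by 0.58 ± 0.13 on the log2 scale under palbociclib (limma, adjusted p = 0.00914), below the size threshold, while EPRS and SARS were DEG without it in their windows. YARS, a DEG under palbociclib, had no window and is in neither group. The median change of all other genes with the motif was not computed, so these medians have no baseline. A match of letters is a description and does not show that a factor is bound there.

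The related gene lists had smaller median changes than the cytosolic synthetases, except the amino acid response genes, whose median change was larger. Of 12 amino acid response genes, 10 were lower DEG under palbociclib and 10 were lower and 1 higher under the combination, with median log2 fold changes of -2.11 and -1.82. Of all tested genes, 4.56% and 7.82% were lower DEG in these comparisons. ATF4 was at 811 and 779 TPM in DMSO, 712 and 687 TPM with TCP, 275 and 295 TPM with palbociclib, and 249 and 273 TPM with the combination, and fell by 1.48 ± 0.08 on the log2 scale under palbociclib (limma, adjusted p = 5.6e-05). ASNS, which makes asparagine, was at 209 and 137 TPM in DMSO, 188 and 85.9 TPM with TCP, 19.5 and 15.7 TPM with palbociclib, and 16.5 and 15.8 TPM with the combination, and fell by 3.20 ± 0.36 (adjusted p = 0.000668). TRIB3, a pseudokinase induced by ATF4, fell by 3.09 ± 0.38 (adjusted p = 0.00103). CEBPB, a C/EBP transcription factor, was the member of this list that was higher, at 1.07 ± 0.07 under the combination (adjusted p = 6.44e-05).

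Of 22 genes of tRNA end processing, splicing and export, 3 were DEG under palbociclib and under the combination, all lower: XPOT, the exporter of tRNA from the nucleus (-1.37 ± 0.14 under palbociclib), TSEN15 of the tRNA splicing endonuclease (-1.26 ± 0.13) and RPP40 of ribonuclease P (-1.06 ± 0.16). Of 21 genes of RNA polymerase III and its factors, POLR3G was the single DEG, with a log2 fold change of -1.67 ± 0.27. Of 11 charging and proofreading partners, DTD1, which removes D-amino acids from tRNA, was the single DEG, at -1.20 ± 0.09. None of the 5 cytosolic and 6 mitochondrial elongation factors was a DEG by limma, and 3 and 4 of them were lower at adjusted p below 0.05 under palbociclib. Among all tested genes, 4.56% were lower DEG under palbociclib and 7.82% under the combination. At adjusted p below 0.05, 30.2% were lower under palbociclib. The 4.76% of the RNA polymerase III list that was DEG under palbociclib was near the share of all tested genes. The medians under palbociclib were -0.36, -0.27, -0.15, -0.39 and -0.37 for these lists in the order named, beside -0.95 for the cytosolic synthetases.

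**Figure D5:**
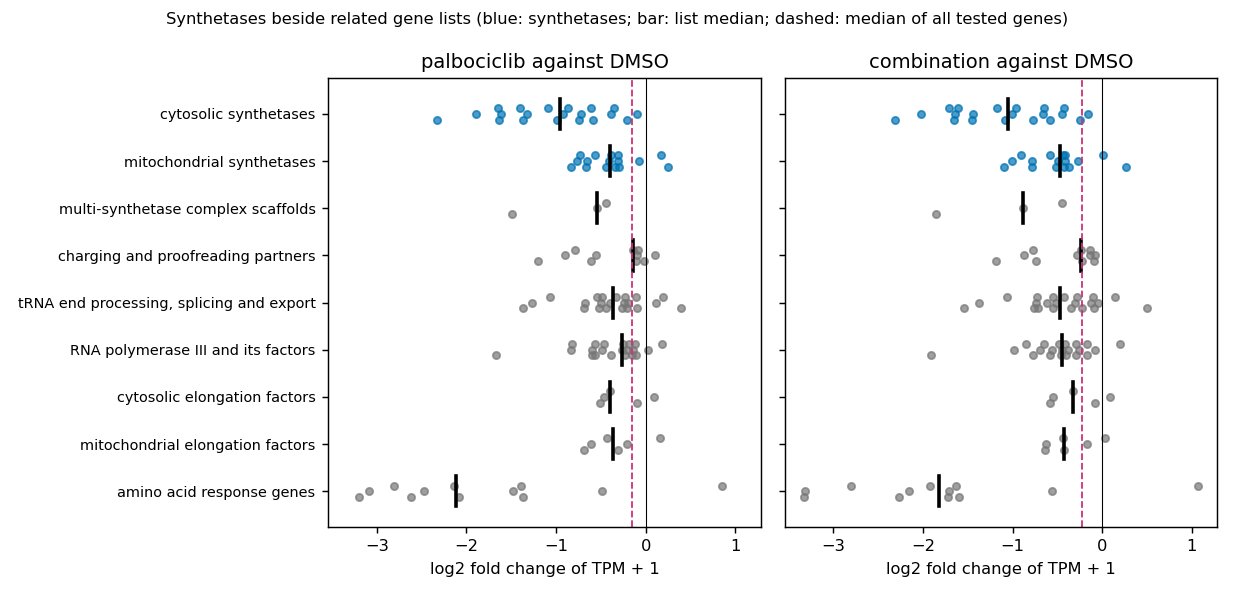
Log2 fold change of TPM + 1 under palbociclib and under the combination, against DMSO, with 1 point per gene and the list median as a bar. Blue points are the synthetases, grey points the other lists, and the dashed line is the median of all tested genes. The cytosolic median of -0.95 under palbociclib lies between that of the amino acid response genes, -2.11, and that of the mitochondrial synthetases, -0.40.

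The libraries were checked against marker lists. The AML line markers CD33, FLT3, SPI1, HOXA9, MEIS1 and PTPRC were at 27.1 TPM or above in all 8 libraries. MPO was low, at 1.6 to 7.03 TPM. At adjusted p below 0.05 by limma, 3 of these 7 markers were lower and 4 higher, under palbociclib and under the combination alike. Shares over all tested genes were 30.2% lower and 14.8% higher under palbociclib, and 37.6% and 15.9% under the combination. FLT3 was a lower DEG with palbociclib (-1.52 ± 0.22), and 1 of the 7 was a higher DEG under the combination. The 8 stromal markers summed to 0.563 and 4.24 TPM in DMSO and 0.730 and 4.44 TPM with TCP. With palbociclib they summed to 3.08 and 63.6 TPM, and with the combination to 5.32 and 10.6 TPM. The sum was higher in replicate 2 of every group. It was also higher in each library with palbociclib than in the DMSO library of the same number, and its part in the result was not tested. In palbociclib replicate 2, COL1A1 was at 22.2 TPM and POSTN at 0. Without that library, the log2 fold changes of SARS and TARS under palbociclib were -0.9978 and -1.17, against -1.09 and -1.33 with all libraries. Without palbociclib replicate 2 the cytosolic and mitochondrial medians were -0.90 and -0.32, and without palbociclib replicate 1 they were -1.01 and -0.46. The cause of these differences was not tested. Of the 5 lymphoid markers CD3E, MS4A1 and CD2 were listed at 0 in every library and the list summed to 1.42 to 2.67 TPM. Of all tested genes, 4.56% were lower DEG under palbociclib and 7.82% under the combination. Of 6 proliferation markers, 5 were lower DEG under palbociclib and 6 under the combination, with medians of -1.15 and -1.59. They were thus lower in both groups with palbociclib, as the cytosolic synthetases were, and their part in the result was not tested. In the combination against palbociclib their median was -0.49, with 6 of 6 negative and 1 of 6 lower at adjusted p below 0.05 (limma), while the cytosolic median was -0.05. In bulk RNA, fewer cells of a kind and less transcript per cell cannot be told apart.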

How the data were processed

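RNA-seq of 8 libraries of MV4-11 cells was analysed, in 4 groups of 2 taken from the labels. The deposited values are TPM per gene, which the authors made by mapping reads to hg19 with subread-align 1.6.4, counting them with featureCounts and converting the counts to TPM, and the processing notes also name SAMtools 1.9 and DESeq2 1.26.0. The libraries were made with a stranded kit, while the gene annotation, the gene lengths and the strand setting of the counting are not given in the sources used here. Each library sums to 1000000 TPM, so depth is unknown, no interval that needs counts is given, and no count test was run.

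From these values log2(TPM + 1) was computed, a gene was kept when 2 or more libraries reached 1 TPM (14151 genes), and limma 3.58.1 in R 4.3.3 was fitted with 1 coefficient per group over all 8 libraries (4 residual degrees of freedom, variances moderated with a mean-variance trend, Benjamini-Hochberg adjustment over all tested genes). The thresholds for DEG are those of the study. Fold changes on the log2(TPM + 1) scale understate the change of low genes. No p-value is given over a list. In simulated data for palbociclib against DMSO with 13700 genes, 83 of 100 genes changed by 1.5 on the log2 scale and 91 of 100 changed by 2 were recovered, and 0 unchanged genes were called. No other genes were changed there, and noise was drawn independently for each library. In the data, 6369 of 14151 tested genes passed adjusted p below 0.05 under palbociclib by limma. The simulated figures therefore do not give the recovery or false calls of the real fit.

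The groups share the replicate numbers 1 and 2. Once group means were subtracted, libraries with the same number correlated across genes at 0.169 to 0.491 in the 6 pairs of groups, and the numbers were taken to mark pairs. This rests on the values alone, since no label says what the numbers share. The fit with the replicate block is quoted where it changes a call.

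Values in every library were to be given for members that were DEG in any comparison (at most 10, by adjusted p under the combination), the mitochondrial enzymes for the same amino acids, the largest change in each direction under TCP, and the highest and the lowest cytosolic member. Members named beyond this rule are marked, and the members and lists were chosen with earlier results of these data known. Gene positions are from an annotation of GRCh37 and promoter sequences from RefSeq (GRCh38.p14), and coordinates of these builds are not comparable. Alternatives were another pseudocount (0.1), filters and scalings, the block, fits of only the groups compared or without the trend, the wider rule, and leaving out each library.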

Additional observations from a re-analysis of the deposited data

Results flagged for a closer look

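SARS2, the mitochondrial serine enzyme, was the only one of the 36 members whose libraries lay wholly apart in opposite directions with TCP, depending on whether palbociclib was present. It measured 34.0 and 33.6 TPM in DMSO and 34.7 and 36.4 TPM with TCP, so both TCP libraries were above both DMSO libraries. With palbociclib it was at 20.9 and 21.1 TPM, and with the combination at 18.4 and 20.1 TPM, so both combination libraries were below both palbociclib libraries. The interaction was -0.1891 on the log2 scale, and by limma it did not pass (adjusted p = 0.913). How many of all tested genes were separated in this way was not counted. Complete separation of 2 libraries against 2 has an exact two-sided permutation p of 0.333. A difference between the effects of TCP in SARS2 is therefore not shown.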

How the results depend on the processing

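Over 16 alternative analyses (other than the wider rule), 7 of the 9 palbociclib DEG were DEG in every one (AARS, CARS, EPRS, GARS, IARS, MARS and YARS), as were 8 of the 12 under the combination (these and TARS) and 7 of the 11 in the combination against TCP. Under median-ratio scaling the combination against DMSO and against TCP each had 0 mitochondrial DEG, and under quantile normalization the former had 0. FARS2 and WARS2 then had log2 fold changes under the combination of -0.91 and -0.83 (quantile) and -0.88 and -0.80 (median-ratio), short of the size threshold. The mitochondrial median under TCP turned from -0.03 to 0.02 and 0.01 with these scalings. Among all DEG, the share that was higher moved from 49.9% to 60.9% (quantile) and 66.4% (median-ratio) under palbociclib, from 42.8% to 56.1% and 61.9% under the combination, and from 44.9% to 55.8% and 60.9% in the combination against TCP. At adjusted p below 0.05, members called numbered 28 under palbociclib (16 cytosolic, 12 mitochondrial), 30 under the combination (17 and 13) and 32 in the combination against TCP (18 and 14), all lower except HARS2 in the last. In a recount chosen after seeing the data, lower mitochondrial members at this rule went from 12 to 7 (quantile) and 6 (median-ratio) under palbociclib, from 13 to 6 and 5 under the combination, and from 13 to 6 and 6 in the combination against TCP. The share of all tested genes that was lower went from 30.2% to 23.1% and 20% under palbociclib. It went from 37.6% to 27.2% and 23.4% under the combination, and from 33.8% to 25.9% and 22.7% in the combination against TCP.

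When 1 library was left out, mitochondrial DEG under the combination ranged from 1 to 3, with WARS2 lost without DMSO replicate 2 or combination replicate 2, and 3 called without DMSO replicate 1. Members called ranged from 7 to 9 under palbociclib, 11 to 13 under the combination and 9 to 13 in the combination against TCP. The cytosolic minus the mitochondrial median log2 fold change ranged from -0.7592 to -0.4616 under palbociclib, -0.6878 to -0.5344 under the combination and -0.3504 to 0.0011 under TCP, where it turned positive without TCP replicate 2 and the cause was not tested.

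With the replicate block, 9 members were DEG under palbociclib, 13 under the combination (DARS added) and 11 in the combination against TCP, and 0 in the other 3 comparisons. The block changed no other DEG call. Over all 14151 tested genes the block gave 1386, 2038 and 1816 DEG in either direction under palbociclib, the combination and the combination against TCP. At adjusted p below 0.05 the block gave 30 lower and 1 higher member under palbociclib, and 34 lower and 1 higher under the combination. In the combination against TCP it gave 33 lower and 1 higher. In the same order, 37.1%, 42.9% and 40% of all tested genes were then lower, and 18.4%, 18.6% and 19.5% higher. Depth is unknown, so no limit from counting can be stated.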

Other observations

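Synthetases fall into 2 structural classes, which attach the amino acid from different sides of the tRNA acceptor stem. The cytosolic members of both classes had medians under palbociclib of -0.92 over 9 class I genes (4 DEG) and of -0.85 over 10 class II genes (4 DEG), with the fused EPRS counted in neither. All these DEG were lower, where 4.56% of all tested genes were lower DEG. KARS, the other gene that serves both compartments besides GARS, was at 245 and 236 TPM in DMSO, 249 and 244 TPM with TCP, 164 and 149 TPM with palbociclib, and 155 and 151 TPM with the combination, and fell by 0.61 ± 0.07 on the log2 scale under palbociclib (limma, adjusted p = 0.000817). It was chosen after its values were seen. NARS2, chosen in the same way, had the largest fall among mitochondrial members under palbociclib, -0.84 ± 0.15 (adjusted p = 0.00472), from 39.3 and 33.3 TPM in DMSO to 21.3 and 18.5 TPM, and with TCP it stood at 48.6 and 39.3 TPM.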
